A study of Mus musculus with 56 samples.

Results

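Liver RNA was measured for 9 genes that act at or just below the output of the circadian clock. They were Dbp, Tef and Hlf, the transcription factor Nfil3, the clock repressor Ciart, the repressors Bhlhe40 and Bhlhe41, the nuclear receptor Rora, and Usp2. The members were named one by one as a list, with no threshold on a measured value, and all 9 were found among the 27547 genes with a read in at least 1 mouse. The list was chosen with earlier results of these data known. All 9 were also among the 11477 genes that passed the filter on low counts over the 6 groups. They do not form a list of transcription factors alone, because Usp2 encodes a deubiquitinating enzyme and the Ciart product (CHRONO) acts as a repressor of the clock complex, so they are called clock output and modulator genes here.

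The study asked how a changed residue, number 446, in GKRP acts on the liver under a rich diet. GKRP (glucokinase regulatory protein, encoded by Gckr) inhibits the glucose-phosphorylating enzyme glucokinase and holds it in the hepatocyte nucleus. The 56 male mice carried proline at residue 446 of both GKRP copies (PP), leucine at both (LL) or 1 of each (PL). All came from 1 knock-in strain, and every group, controls included, had 20 weeks of a diet rich in fat and sugar (HFHSD), with 45% fat in the pellets and 10% glucose and 5% fructose to drink. A subgroup of each genotype was also given a glucokinase activator (GKA) at 3 mg/kg, which made 6 groups. There were 10 PP, 10 PP with GKA, 8 PL, 8 PL with GKA, 10 LL and 10 LL with GKA mice. There was no lean or chow-fed group. The labels gave neither the clock time at which a liver was taken nor a litter, cage or sequencing batch, so the time of harvest and the group cannot be told apart for these genes. PP mouse 7 was left out, as the study did, which left 55 mice and 9 PP mice without GKA.

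The circadian clock of the liver rests on a feedback loop in which BMAL1 with CLOCK or NPAS2 activates genes through E-box sequences, among them the genes of the PER and CRY proteins that then inhibit this activation. DBP, TEF and HLF, the PAR bZIP factors, activate genes through D-box sequences and so pass the rhythm on to liver metabolism, while NFIL3 (E4BP4) binds the same D-boxes as a repressor and peaks at the opposite time of day. BHLHE40 and BHLHE41 (DEC1 and DEC2) compete for E-boxes and repress, RORA activates the Bmal1 gene through RORE sequences, CHRONO represses BMAL1 with CLOCK, and USP2 removes ubiquitin from clock proteins. Because most of these transcripts rise and fall over the day, their level in a liver taken at a single time depends on that time.

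Libraries held 5180136 to 8081370 estimated reads per mouse (median 6545492), and the members took a small part of them. Bhlhe40 had 197 to 1167 reads per mouse over the 56 mice, Tef 120 to 770, Rora 103 to 391.7, Hlf 77.7 to 271, Dbp 3.3 to 587 and Nfil3 22 to 206. Ciart (0 to 39.6 reads), Bhlhe41 (1 to 36) and Usp2 (0 to 118) rested on few reads and were measured with less precision. Hepatocyte markers summed to 79762 to 135310 CPM (read counts scaled to the size of the library) in every liver and skeletal muscle markers to at most 0.18 CPM. In bulk tissue, fewer cells of a type and less RNA per cell cannot be told apart.

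The genes lie apart in the genome (GRCm39), except that both Bhlhe genes lie on chromosome 6 and Rora and Usp2 on chromosome 9. Dbp spans chr7:45354512-45359627, Tef chr15:81686622-81711064, Hlf chr11:90227221-90281761 and Nfil3 chr13:53121245-53137010. Ciart spans chr3:95785815-95789991, Rora chr9:68561068-69295528, Bhlhe40 chr6:108636626-108644502, Bhlhe41 chr6:145803969-145811430 and Usp2 chr9:43978264-44006924. Exons of 8 of the 9 genes overlap a gene model on the opposite strand, Hlf being the exception, and Dbp overlaps the coding gene Sphk2. Whether reads were assigned by strand is not given in the sources used here, so these 8 genes may share reads with their partners.

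The 250 bases before the start of each member's most-read transcript were read from the GRCm39 genome and searched on both strands for the E-box CACGTG, the D-box TTATGTAA or TTACGTAA, and the core of the RORE, TAGGTCA. The E-box reads the same on both strands, and no 2 matches overlapped. The E-box was present in the windows of Ciart, Bhlhe40 and Usp2 (3 of 9 members, against 7.67% of the 11476 windows read), the RORE core in that of Dbp (1 of 9, against 1.85%), and the D-box in none of the 9 (against 0.758%). Ciart holds 3 E-boxes, whose first bases lie 100, 42 and 28 bases before the start, Bhlhe40 holds 1 at 222 bases and Usp2 1 at 104 bases. The RORE core of Dbp, 189 bases before the start, lies in the last exon of the neighbouring gene Car11. The stretches around the E-boxes of Ciart and Bhlhe40 are printed here because they show the clock's own target sequence next to a member that was not called and one that was, 5′ to 3′ towards the start, outside annotated UTRs, with the E-boxes in capitals. They are chr3:95789564-95789644 on the minus strand for Ciart (with 2 of its 3 E-boxes) and chr6:108636376-108636625 on the plus strand for Bhlhe40. The window of Usp2 lies within a UTR of the opposite-strand model Gm49380 and is not shown.
Ciart: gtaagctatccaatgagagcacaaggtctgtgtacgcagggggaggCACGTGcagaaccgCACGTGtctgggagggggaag
Bhlhe40: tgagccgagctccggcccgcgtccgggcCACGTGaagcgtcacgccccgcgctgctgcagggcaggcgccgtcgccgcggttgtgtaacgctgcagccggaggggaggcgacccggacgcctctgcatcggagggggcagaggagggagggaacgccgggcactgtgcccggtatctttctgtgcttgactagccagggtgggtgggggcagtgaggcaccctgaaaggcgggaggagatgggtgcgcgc
A match describes the letters only, and no match in the other windows says only that these letters are not in these 250 bases.

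Compared per length, in TPM (abundance corrected for length and scaled to the library), the members covered a wide range of levels. Bhlhe40 (25.5 ± 13.8 TPM, SD, n = 55 mice), Dbp (22.4 ± 15.9) and Tef (22.0 ± 32.3) stood highest. Hlf (4.52 ± 4.66), Nfil3 (3.98 ± 2.16), Rora (2.70 ± 1.65), Usp2 (2.17 ± 2.67) and Ciart (1.5 ± 1.66) were lower, and Bhlhe41 (0.505 ± 0.606) lowest. Neighbours in this order differed by less than the larger of their SDs, but for Tef and Hlf this rested on 1 library, PP mouse 4 with 240 TPM of Tef. Without that mouse Tef was 18.0 ± 12.2 TPM (n = 54), above Hlf by more than the SD.

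By LL genotype, 4 of the 9 genes changed when both GKA states were fitted together, in a fit over all 55 mice with GKA as a covariate. Bhlhe40, Bhlhe41 and Dbp rose and Nfil3 fell, where a call needed an adjusted p below 0.05 and a fold above 1.3 or below 0.7 in edgeR's quasi-likelihood test with Benjamini-Hochberg adjustment over all genes. In that comparison 1.7% of the 11477 genes were called, 0.941% higher and 0.758% lower. By PL genotype, Dbp, Tef and Bhlhe41 rose and Nfil3 fell, again 4 of 9 genes, where 1.05% of all genes were called, 0.566% higher and 0.479% lower. The median log2 fold change of the 9 genes was 0.60 by LL and 0.61 by PL genotype, beside 0.003 and 0 over all genes tested. Both comparisons used the same PP mice, so they are not independent of each other. Because the list was chosen with earlier results of these data known, its share of calls beside that of all genes is a description, not a test.

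**Figure D1:**
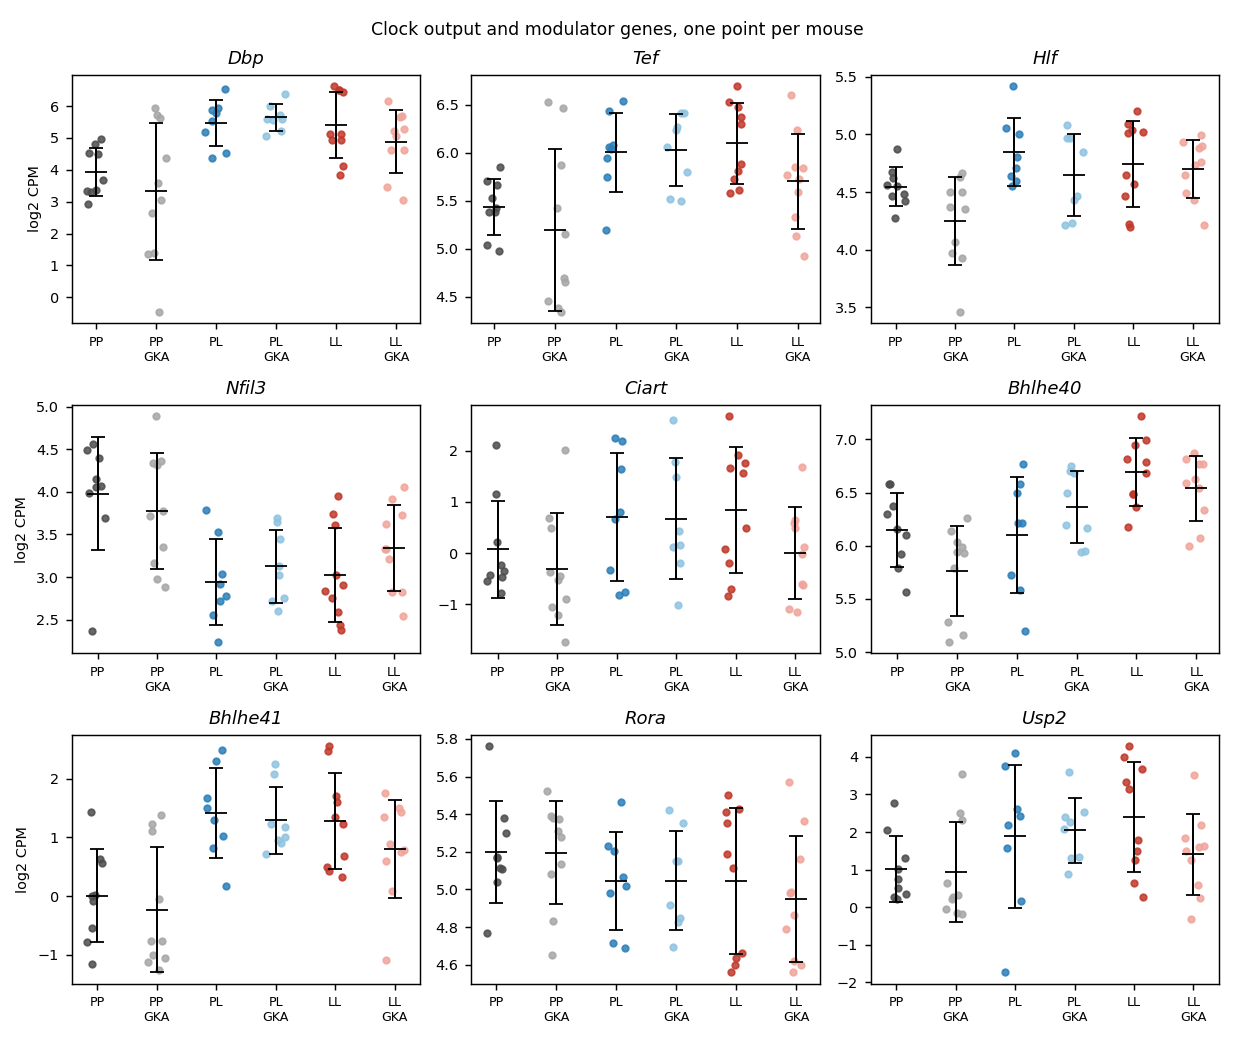
Level of each of the 9 genes (log2 CPM with a prior count of 2, vertical axis) in each of the 6 groups, 1 point per mouse, with the mean and SD as bars. Nfil3 sits higher and Dbp, Tef and Bhlhe41 lower in most PP mice than in PL and LL mice, and PP mice with GKA are the most widely spread group for Dbp and Tef.

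Dbp, a PAR bZIP factor with a steep daily rhythm in liver, ranged from 7.33 to 30.9 CPM in PP mice (median 12.7) and from 0.428 to 60.9 CPM in PP mice with GKA (median 9.87). In PL mice Dbp ranged from 20.5 to 91.6 CPM (median 50.5), and in PL mice with GKA from 32.9 to 82.9 CPM (median 48.0). In LL mice Dbp ranged from 14.0 to 99.0 CPM (median 34.5), and in LL mice with GKA from 8.03 to 71.1 CPM (median 35.3). All 8 PL mice with GKA, 6 of 8 PL, 6 of 10 LL and 6 of 10 LL mice with GKA thus exceeded the highest PP mouse without GKA. The PP mice with GKA were split, with 3 of 10 above that mouse and 4 of 10 below the lowest PP mouse. Dbp rose by 1.16 on the log2 scale by LL genotype (SE 0.336, 2.23-fold, adjusted p = 0.0349) and by 1.37 by PL genotype (SE 0.348, 2.59-fold, adjusted p = 0.0217). The LL call is fragile, because it was lost without 1 mouse in 13 of 55 fits, with the adjusted p between 0.0503 and 0.0614 (without PP mouse 1, 2, 5 or 8, PP GKA mouse 11, 16 or 18, LL mouse 37, 43, 45 or 46, or LL GKA mouse 47 or 53). The PL call held in 55 of 55.

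Tef, the second PAR bZIP factor, ranged from 31.2 to 57.4 CPM in PP mice (median 42.6) and from 20.0 to 91.8 CPM in PP mice with GKA (median 30.4). Tef ranged from 36.4 to 92.7 CPM in PL mice (median 65.9) and from 45.0 to 85.01 CPM in PL mice with GKA (median 70.6). Tef ranged from 47.6 to 103 CPM in LL mice (median 68.4) and from 30.0 to 97.0 CPM in LL mice with GKA (median 53.5). The groups overlapped, and 6 of 8 PL and 6 of 10 LL mice exceeded the highest PP mouse. Tef rose by PL genotype (log2 fold change 0.61, SE 0.171, 1.53-fold, adjusted p = 0.0433), and its value by LL genotype was 0.52 (SE 0.163, adjusted p = 0.0581), past the threshold in 5 of 55 fits without 1 mouse and by DESeq2 (adjusted p = 0.0351). The PL call held in 35 of 55 such fits, with adjusted p between 0.0533 and 0.0800 in the other 20 (PP mice 1, 2, 5, 8 and 10, PP GKA mice 11, 12, 15, 16, 18 and 19, PL mice 24, 25, 26 and 28, and PL GKA mice 29, 30, 34, 35 and 36).

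Hlf, the third PAR bZIP factor, had the smallest log2 fold change of the 3 in both comparisons over both GKA states. Its mean was 23.2 ± 2.83 CPM (SD) in the 9 PP mice and 19.2 ± 4.68 in the 10 PP mice with GKA, against 29.0 ± 6.54 and 25.5 ± 6.18 in the PL and 27.3 ± 6.81 and 26.0 ± 4.36 in the LL groups without and with GKA. Its log2 fold change was 0.34 by LL genotype (SE 0.098, 1.26-fold, adjusted p = 0.0375) and 0.37 by PL genotype (SE 0.104, 1.29-fold, adjusted p = 0.0465), so that it passed the adjusted p but not the fold threshold, except by PL genotype in 9 of 55 fits without 1 mouse. The summed macrophage markers of a mouse stood against Hlf more than against any other member (r = -0.556 across 55 mice with group means subtracted, against -0.402 to 0.285 for the rest). Those markers ranged from 44.8 to 257 CPM over the mice, their group medians from 94.2 to 134 CPM, with none of the 4 at 0 in all mice, and their part in the Hlf values was not tested.

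Nfil3, the repressor at the D-box, moved the other way. It ranged from 4.84 to 23.4 CPM in PP mice (median 16.6) and from 7.08 to 29.4 CPM in PP mice with GKA (median 13.1). In PL mice Nfil3 ranged from 4.40 to 13.6 CPM (median 6.89), and in PL mice with GKA from 5.79 to 12.7 CPM (median 8.15). In LL mice Nfil3 ranged from 4.90 to 15.2 CPM (median 6.99), and in LL mice with GKA from 5.54 to 16.4 CPM (median 9.77). PP mouse 6 had the lowest of the 9 PP values, at 2.36 log2 CPM, where the other 8 lay between 3.70 and 4.565, and without it the PL and LL ranges still overlapped that of PP. All 8 PL and all 10 LL mice without GKA lay below the mean log2 CPM of PP mice. Nfil3 fell by 0.74 on the log2 scale by LL genotype (SE 0.176, 0.599 of the PP level, adjusted p = 0.00783) and by 0.92 by PL genotype (SE 0.190, 0.528 of the PP level, adjusted p = 0.00395), and both calls held in 55 of 55 fits without 1 mouse.

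Bhlhe40, which encodes DEC1, was the member with the smallest adjusted p by LL genotype. It ranged from 47.1 to 95.5 CPM in PP mice (median 71.0) and from 33.8 to 76.5 CPM in PP mice with GKA (median 61.0). Bhlhe40 ranged from 36.4 to 109 CPM in PL mice (median 74.0) and from 61.3 to 107 CPM in PL mice with GKA (median 81.6). In LL mice it ranged from 71.8 to 149 CPM (median 106), and in LL mice with GKA from 63.6 to 117 CPM (median 97.5). All 10 LL mice in each GKA state lay above the mean log2 CPM of the matched PP group, and 6 of 10 in each exceeded the highest PP mouse without GKA. Bhlhe40 rose by LL genotype (log2 fold change 0.65, SE 0.122, 1.57-fold, adjusted p = 0.000755, called in 55 of 55 fits without 1 mouse). Its value by PL genotype was 0.30 (SE 0.129, adjusted p = 0.260). LL and PL were compared directly only within each GKA state, where Bhlhe40 gave 0.53 without GKA (SE 0.189, adjusted p = 0.786) and 0.17 with GKA (adjusted p = 0.794), so a difference between the 2 genotypes did not pass the test.

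Bhlhe41, which encodes DEC2, was low throughout, with 1 to 36 reads per mouse. It ranged from 0.149 to 2.39 CPM in PP mice (median 0.697) and from 0.118 to 2.32 CPM in PP mice with GKA (median 0.289). Bhlhe41 ranged from 0.827 to 5.34 CPM in PL mice (median 2.36) and from 1.34 to 4.48 CPM in PL mice with GKA (median 1.84). It ranged from 0.951 to 5.58 CPM in LL mice (median 2.15) and from 0.169 to 3.08 CPM in LL mice with GKA (median 1.49). All 8 PL and all 10 LL mice without GKA lay above the mean log2 CPM of PP mice, although the ranges overlapped. Bhlhe41 rose by LL genotype (log2 fold change 1.26, SE 0.321, 2.40-fold, adjusted p = 0.0135) and by PL genotype (1.56, SE 0.329, 2.95-fold, adjusted p = 0.00461), in 55 of 55 fits without 1 mouse for each.

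Ciart, Rora and Usp2 did not pass the test by either genotype. Ciart had group medians between 0.419 and 1.89 CPM, with 1 mouse at 0 reads, and its log2 fold change was 0.60 (95% interval -0.28 to 1.48) by LL and 1.03 (0.14 to 1.92) by PL genotype. Usp2 had group medians between 0.922 and 5.87 CPM, with 1 PL mouse at 0 reads, and its value was 0.98 (0.12 to 1.83, adjusted p = 0.242) by LL and 1.04 (0.16 to 1.92, adjusted p = 0.262) by PL genotype. Rora varied least of the members in log2 SD within groups (0.307), with group medians between 30.0 and 39.0 CPM, and its value was -0.18 (-0.37 to 0.004) by LL and -0.16 (-0.35 to 0.04) by PL genotype. Rora was also the member whose level went most with the scaling factor of a library (r = 0.46 across 55 mice, group means subtracted, against -0.245 to 0.192 for the others), and the part of this in its values was not tested.

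**Figure D2:**
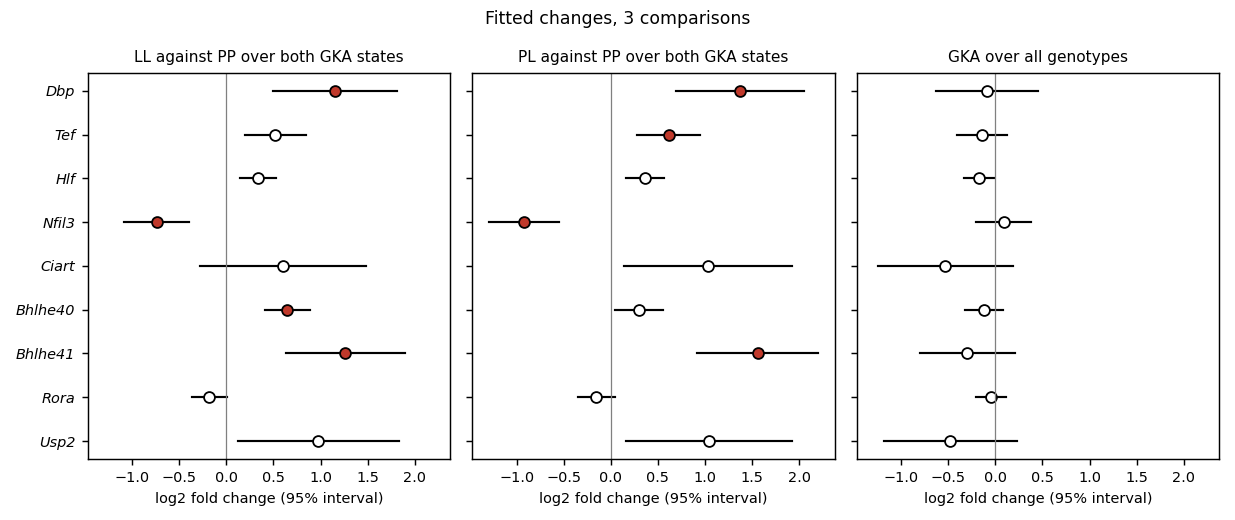
Log2 fold change (horizontal axis) of each of the 9 genes with its 95% interval, by LL genotype, by PL genotype and by GKA, each over all 55 mice. Filled points passed both thresholds (4 genes in each of the first 2 panels and 0 in the third).

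The calls changed when an offset for transcript length was put into the fit. With an offset for the mean length of the transcripts that each mouse was estimated to use, 0 of 9 members were called by LL and 1 of 9 (Nfil3, log2 fold change -0.94, adjusted p = 0.0310) by PL genotype, while 26 and 13 of all genes were called in place of 195 and 120. Under this offset the LL values of Dbp (1.32, adjusted p = 0.0881), Nfil3 (-0.72, adjusted p = 0.0811), Bhlhe40 (0.65, adjusted p = 0.234) and Bhlhe41 (1.62, adjusted p = 0.183) kept their direction. Nfil3, with 1 measured transcript, had -0.74 without the offset (adjusted p = 0.00783), and Bhlhe40 had 0.65 (adjusted p = 0.000755). Their values thus barely moved while their adjusted p rose, and why calls were lost was not tested. By PL genotype Dbp (1.41, adjusted p = 0.0729) and Bhlhe41 (1.86, adjusted p = 0.102) kept theirs, and Tef turned to -0.22 (adjusted p = 0.826). Without the filter on low counts, Dbp by LL (adjusted p = 0.0620) and Tef by PL genotype (adjusted p = 0.0724) also missed the threshold.

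The members differed in how their reads were spread over transcripts. Nfil3 had 1 measured transcript. Bhlhe40-201 took 92.7% ± 3.77 (SD, n = 55 mice) of the Bhlhe40 reads and Rora-201 94.6% ± 5.37 of those of Rora. Hlf-201 took 82.8% ± 11.5, with Hlf-203 at 16.4% ± 11.1. For Tef, Tef-202 took 65.7% ± 18.8 and Tef-201 23.9% ± 15.7. Dbp was divided between Dbp-201 (37.9% ± 15.5), Dbp-204 (32.5% ± 18.8) and the retained-intron transcript Dbp-205 (16.4% ± 8.46). Usp2-201 took 63.3% ± 22.0 of the Usp2 reads. Shares of reads thus varied widely between mice for Tef, Dbp and Usp2, and little for Bhlhe40 and Rora. They also varied widely for Ciart-202 (36.7% ± 41.8) and Bhlhe41-201 (85.2% ± 24.3), which rest on few reads. Group means of Tef-202 lay between 62.8% and 69.3%, within the SD between mice, and those of Dbp-201 between 32.0% and 50.3%, a span that was not tested. Shares of TPM, on which the length offset rests, differed more between groups for Bhlhe40 and Rora. Their group means lay between 57.5% and 76.7% for Bhlhe40-201 and between 60.8% and 88.0% for Rora-201, also not tested.

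Within each GKA state fewer calls were made. Without GKA, 0 of the 7 members tested were called by LL genotype (0.0854% of all genes called) and 0 of 7 by PL genotype (0.151%) in edgeR, while DESeq2 called 4 (Dbp, Tef, Nfil3 and Bhlhe40) and 3 (Dbp, Tef and Nfil3). DESeq2 also called more of all genes, 1.05% by LL and 0.671% by PL genotype. At an unadjusted p below 0.05 there were 5 of 7 members in each, against 11.8% and 10.1% of all genes. Dbp was 1.62 higher by LL (SE 0.388, adjusted p = 0.0896) and 1.52 higher by PL genotype (SE 0.322, adjusted p = 0.0670) on the log2 scale. Nfil3 had log2 fold changes of -0.97 (adjusted p = 0.109) and -1.09 (adjusted p = 0.0856), and without PP mouse 6 it was called in both, at adjusted p = 0.0200 and 0.0102. Without LL mouse 42, Nfil3 (adjusted p = 0.0369), Dbp (0.0357) and Tef (0.0377) were called by LL genotype, with 85 of all genes called in place of 9. Dbp was called by PL genotype without PP mouse 6 or 10 or PL mouse 21, at adjusted p between 0.0411 and 0.0464. Bhlhe40 had 0.54 by LL (adjusted p = 0.112) and -0.002 by PL genotype (95% interval -0.38 to 0.38). Ciart and Bhlhe41 were too low to be tested in these groups alone. Between LL and PL without GKA, 0 of 9 members were called by edgeR and 0 by DESeq2 (0.00942% of all genes by edgeR), and 1, Bhlhe40, had an unadjusted p below 0.05 (4.58% of all genes).

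With GKA, Bhlhe40 was the 1 member of 7 that changed by LL genotype (log2 fold change 0.76, SE 0.150, 1.69-fold, adjusted p = 0.0295, 0.239% of all genes called). Its call held in 13 of 20 fits without 1 mouse, and was lost without PP GKA mouse 11, 12, 15 or 19 or LL GKA mouse 51, 54 or 55, at adjusted p between 0.0505 and 0.0590. With the offset for transcript length its value was 0.85 (adjusted p = 0.445). Hlf had the other unadjusted p below 0.05 (0.45, adjusted p = 0.200, where 10.4% of all genes had such a p). Dbp had 0.71 (SE 0.576, adjusted p = 0.757), Nfil3 -0.51 (adjusted p = 0.505), Tef 0.35 (adjusted p = 0.760) and Usp2 0.18 (adjusted p = 0.954). Without GKA these were larger in size by LL genotype, at 1.62, -0.97, 0.69 and 1.77, while Bhlhe40, Hlf and Rora were smaller. No member passed the test of the interaction of LL genotype with GKA. By PL genotype with GKA, 0 of 8 members were called by edgeR or DESeq2 (0.0% of all genes by edgeR), and 6 of 8 had an unadjusted p below 0.05 (8.19% of all genes). Those 6 were Dbp (1.27), Tef (0.64), Hlf (0.41), Bhlhe40 (0.58) and Bhlhe41 (1.46), all higher, and Nfil3 (-0.76), lower. Between LL and PL with GKA, 0 of 8 members were called by edgeR or DESeq2 (0.0% of all genes by edgeR) and 0 had an unadjusted p below 0.05 (8.6% of all genes). For Dbp the PP mice with GKA gave the widest spread, with an SD of 2.15 log2 CPM against 0.42 to 1.04 in the other 5 groups. Another group was more widely spread for Usp2, Ciart and Bhlhe40 (PL) and for Rora (LL).

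GKA itself changed none of the 9 genes by the test. Over all genotypes, 0 of 9 were called by edgeR or DESeq2 (0.0% of all genes by edgeR), and Hlf alone had an unadjusted p below 0.05 (log2 fold change -0.17, adjusted p = 0.928, against 5.28% of all genes). The intervals leave room for changes of some size, from -0.63 to 0.46 for Dbp, -0.21 to 0.38 for Nfil3, -0.33 to 0.08 for Bhlhe40 and -1.18 to 0.23 for Usp2. Within PP mice 0 of 6 members tested were called (0.0% of all genes), with Bhlhe40 (-0.38) and Hlf (-0.28) at an unadjusted p below 0.05 (3.56% of all genes). Within PL mice 0 of 8 were called (0.0%) and 0 had such a p (3.18%). Within LL mice 0 of 8 were called (0.0%), with Usp2 (-1.20, SE 0.534) at such a p (6.15%). DESeq2 called 0 members in each of these 3 comparisons too. The difference of the GKA effect between genotypes was tested as an interaction, and 0 of 9 members passed for LL against PP (0.0% of all genes) and 0 of 9 for PL against PP (0.0%), by edgeR and by DESeq2. Bhlhe40 had an interaction of 0.58 for PL (SE 0.268, adjusted p = 1) at an unadjusted p below 0.05, as did 3.35% of all genes, and no member had one for LL (5.75%).

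Within the groups the levels of many members were related from mouse to mouse. After subtraction of each group's mean, 28 of the 36 pairs of members were correlated across the 55 mice (permutation of mice within groups, 100000 resamples, two-sided, adjusted over the 36 pairs). The share of correlated pairs among all genes was not measured, so this count does not set the members apart from other genes. Ciart and Usp2 had the highest correlation (Pearson's r = 0.859, Spearman's rho = 0.836), with r between 0.765 and 0.981 in every group, although both rest on few reads. Dbp and Tef had r = 0.837 (rho = 0.818, between 0.232 and 0.894 by group), and Tef and Usp2 r = 0.812 (rho = 0.818). For these 3 pairs the adjusted permutation p was 3.6e-05 for r and 3.27e-05 for rho, with the unadjusted p of 1e-05 the smallest that the resamples can give. Without the 2 mice farthest from the median of the first gene, r was 0.839, 0.819 and 0.798.

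**Figure D3:**
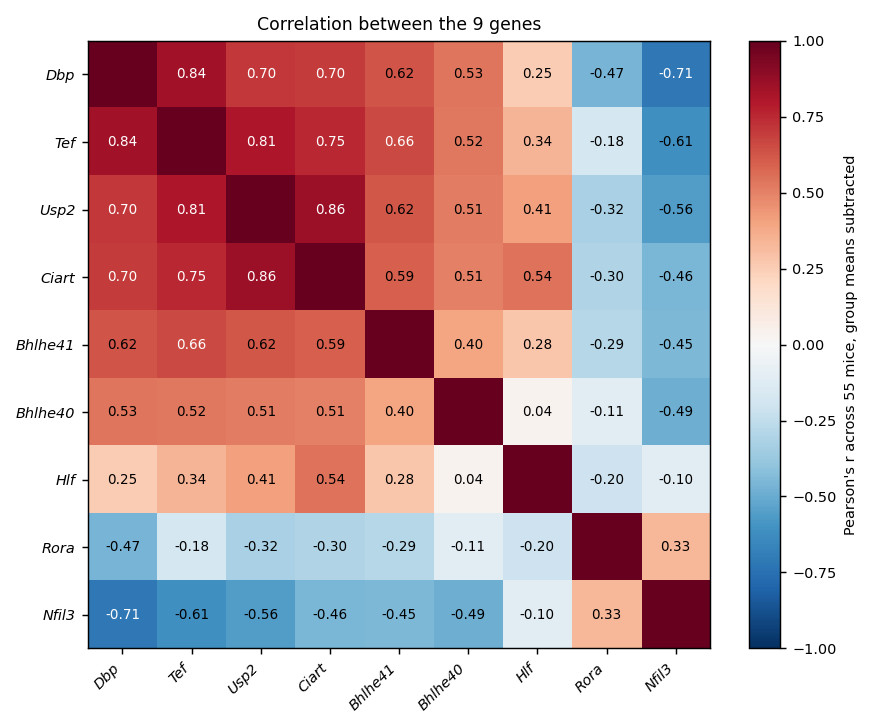
Pearson's r between each pair of the 9 genes across 55 mice after subtraction of group means (color scale from -1 to 1, values printed in the cells). Dbp, Tef, Usp2, Ciart, Bhlhe41 and Bhlhe40 were positively related to one another, and Nfil3 was negatively related to all 6.

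Nfil3 ran against the activators of the same D-box. Dbp and Nfil3 had r = -0.715 (rho = -0.725, adjusted permutation p = 3.6e-05 and 3.27e-05, r = -0.697 without the 2 mice farthest from the Dbp median). The sign was negative in all 6 groups, from -0.245 in PP to -0.895 in LL mice. Tef and Nfil3 had r = -0.612 (rho = -0.644, adjusted permutation p = 3.6e-05 and 3.27e-05). Hlf and Nfil3 had r = -0.103 (rho = -0.115, adjusted permutation p = 0.486 and 0.453), so the third PAR bZIP gene did not show this relation beyond its error. The difference between Dbp and Nfil3, as Dbp minus Nfil3 in log2 CPM, was -0.04 ± 1.13 (SD, n = 9) in PP and -0.46 ± 2.77 (n = 10) in PP mice with GKA. It was 2.53 ± 1.18 and 2.52 ± 0.75 (n = 8 each) in PL mice without and with GKA, and 2.39 ± 1.55 and 1.54 ± 1.42 (n = 10 each) in LL mice.

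**Figure D4:**
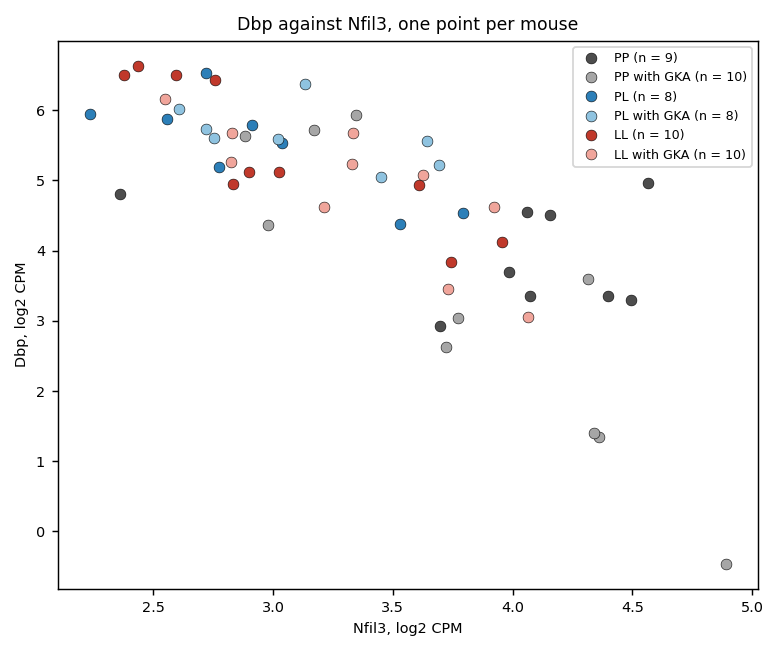
Dbp (vertical axis) against Nfil3 (horizontal axis), both in log2 CPM, 1 point per mouse for 55 mice in 6 groups. On the whole, mice with more Nfil3 had less Dbp, and the PP mice with GKA span the plot from 5.94 to below 0 log2 CPM of Dbp.

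The paralogs Bhlhe40 and Bhlhe41 were only loosely related (r = 0.395, rho = 0.351, adjusted permutation p = 0.00697 and 0.0185, r = 0.408 without 2 mice). Hlf was related to Ciart (r = 0.543, rho = 0.567, adjusted permutation p = 0.000168 and 0.000103) but with Dbp reached only r = 0.25 (rho = 0.364, adjusted permutation p = 0.137 and 0.0169). Rora was related positively to Nfil3 alone (r = 0.334, rho = 0.344, adjusted permutation p = 0.0237 and 0.0204). Total reads per mouse were only weakly related to the members (r between -0.255 and 0.136).

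The core clock genes were measured in the same livers. Of 11 core genes, 3 were called lower by LL genotype over both GKA states (Cry1, Npas2 and Bmal1), beside 0.758% of all genes. By PL genotype 3 were called higher (Cry2, Per3 and Nr1d1) and 3 lower (Cry1, Npas2 and Bmal1), beside 0.566% and 0.479% of all genes. Called or not, 4 core genes were higher and 7 lower by LL (median -0.081, 0.003 over all genes). By PL genotype 5 were higher and 6 lower (median -0.166, 0 over all genes). Bmal1, whose product drives the E-box genes, had a log2 fold change of -1.25 (SE 0.294, adjusted p = 0.00718) by LL and -1.29 (SE 0.316, adjusted p = 0.0163) by PL genotype. Per3 had 0.80 (SE 0.269, adjusted p = 0.0824) and 1.15 (SE 0.278, adjusted p = 0.0143). Of the 99 pairs of a member with a core gene, 72 were correlated within groups by the same permutation test, adjusted over the 99. How many of all genes were correlated with core genes in this way was not measured. Dbp had r = -0.827 with Bmal1, between -0.95 and -0.775 in the 6 groups, and Nfil3 r = 0.758, between 0.641 and 0.848. Usp2 had r = -0.791 with Bmal1, between -0.898 and -0.696. Hlf was more weakly related, with r between -0.37 and 0.287 over the 11 core genes. It still passed with Bmal1 (r = -0.37, adjusted permutation p = 0.0156) and Clock (r = -0.318, adjusted permutation p = 0.0453). By group, r of Hlf with Bmal1 lay between -0.715 (LL) and -0.073 (LL with GKA), and with Per3 between -0.135 (PP with GKA) and 0.735 (LL).

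**Figure D5:**
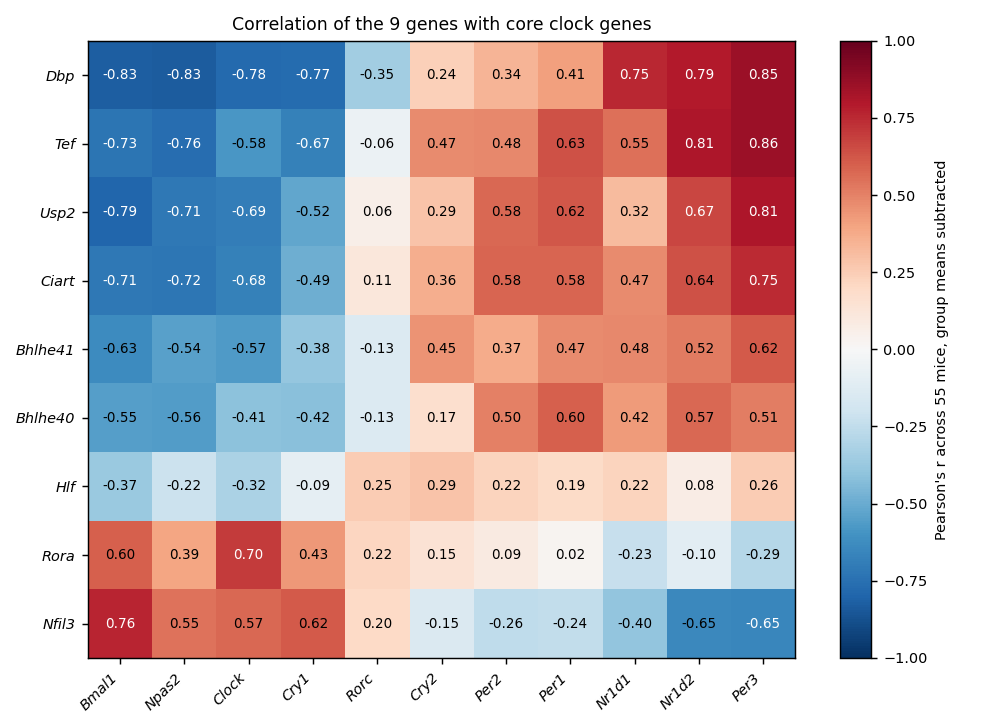
Pearson's r of each of the 9 genes (rows) with each of 11 core clock genes (columns) across 55 mice after subtraction of group means. Dbp, Tef, Usp2 and Ciart run against Bmal1, Npas2, Clock and Cry1 and with Per3 and Nr1d2, Nfil3 shows the reverse, and Hlf is pale throughout.

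Lists of PAR bZIP targets, of other clock-controlled genes and of fasting and glucocorticoid genes also held genes that moved in both directions. Of 7 measured genes known as PAR bZIP targets, 1 was called by LL genotype, Por (the electron donor of microsomal cytochromes P450, log2 fold change 0.68, SE 0.204, adjusted p = 0.0445). By PL genotype Por had 0.48 (adjusted p = 0.284). The median of these genes was 0.42 by LL genotype (5 higher, 2 lower) and -0.06 by PL genotype (3 higher, 4 lower). Of 8 other clock-controlled genes, 2 were called lower by LL (Cdkn1a, the cell cycle inhibitor p21, at -1.12 and Elovl3, a fatty acid elongase, at -0.80) and 1 lower by PL genotype (Cdkn1a at -1.76). Called or not, 5 of the 8 were higher and 3 lower by LL genotype (median 0.145). By PL genotype 3 were higher and 5 lower (median -0.042). Of 8 genes of fasting and glucocorticoid action, 1 was called lower by LL (Tsc22d3, a glucocorticoid target, at -0.94) and 2 lower by PL genotype (Tsc22d3 at -1.02 and Igfbp1 at -1.16). This list too was mixed, with 5 higher and 3 lower by LL (median 0.079) and 4 and 4 by PL genotype (median -0.092). Over all genes tested, 0.758% were called lower by LL and 0.479% by PL genotype. Food was withdrawn before harvest, and the part of feeding or handling in the members' values was not tested.

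The genes whose pattern was most like each member's were sought among all named genes that passed the filter, by Pearson's r after subtraction of group means (n = 55 mice), as a description of these livers. Dbp was most like Per3 (r = 0.854), Npas2 (-0.83) and Bmal1 (-0.827), and Tef was most like Per3 (0.859), Slc30a10 (-0.848) and Por (0.84). Nfil3 was most like Pnrc1 (0.815), Slc45a3 (0.785) and Bmal1 (0.758). Usp2 was most like Cldn1 (-0.863), Clpx (-0.859) and Dtx4 (-0.828), and Ciart like Cyp2a5 (0.805), Asap2 (-0.79) and Clpx (-0.786). Bhlhe40 was most like Rgs16 (0.68), Pxmp4 (-0.67) and Slc20a1 (0.645), and Bhlhe41 like Upp2 (0.726), Klf10 (0.713) and Caprin1 (-0.653). Core clock genes were thus among the nearest 3 for Dbp, Tef and Nfil3 and not for the others. Hlf was most like Ctss (-0.723), Sord (0.7) and Ctsc (-0.675), 2 of which are lysosomal proteases, and Rora like Dennd5b (0.834), Rpl8 (-0.824) and Birc6 (0.817).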

How the data were processed

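Liver RNA of 56 mice was sequenced by the authors from total RNA with a RIN above 6. Quality was checked with FastQC and reads were quantified without trimming against the GENCODE M26 transcripts (GRCm39) with Salmon 1.4.0 per the labels and the study's methods. The deposited files give estimated counts and TPM for 139225 transcripts per mouse, with an effective length. TPM were made by the authors from the counts and effective lengths, and as shares of a library they carry no depth.

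Transcript counts were summed per gene with the GENCODE M39 annotation (98.8% of transcripts matched, and at least 99.8% of reads) and rounded. Groups came from the sample titles. PP mouse 7 was left out as in the study and kept in an alternative. Any 2 mice of a group differed by more than sampling noise (chi-square per degree of freedom at least 11.3). Genes were filtered with filterByExpr and tested in edgeR 4.0.16 (R 4.3.3, TMM scaling, quasi-likelihood F test, Benjamini-Hochberg over all genes), calls needing an adjusted p below 0.05 and a fold above 1.3 or below 0.7. Pairwise comparisons used their 2 groups only, and comparisons over both GKA states all 55 mice with genotype and GKA as terms. On simulated data for LL against PP without GKA, 87% of 192 genes with a 2-fold change and 43.8% of 194 with a 1.5-fold change were recovered, and for LL against PP over both GKA states 92.8% of 195 and 71.6% of 197. The changed genes were drawn from all genes that passed the filter, and within a run all had the same fold. In the real comparison of LL against PP without GKA, 9 of 10537 genes were called. These rates may therefore be too high for the real data, and need not hold for members as variable as Dbp or Usp2. Levels are given as CPM, log2 values with a prior count of 2. Correlations used SciPy 1.17.1 and NumPy 2.4.6, and the tests of them were added after the design was written. DESeq2 1.42.0, RLE scaling, no filter, PP mouse 7 kept, a transcript length offset, all 6 groups in 1 fit and leaving out each mouse were tried as alternatives. Motifs were searched in 250 bases before the start of the most-read transcript.

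The members and gene lists were chosen with earlier results of these data known. The text names all 9 members, the 3 genes most like each, and called genes of 4 lists (core clock, PAR bZIP targets, clock-controlled, fasting and glucocorticoid action). Bmal1 and Per3 were given with values whether called or not.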

Additional observations from a re-analysis of the deposited data

Results flagged for a closer look

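Of 54 sets of values (9 genes in 6 groups), 1 held a mouse far from the rest of its group, where chance alone gives about 1 in 20. Nfil3 in PP mouse 6 was 2.36 log2 CPM, and the other 8 PP mice without GKA lay between 3.70 and 4.565, so that the gap made up 0.606 of the group's range against a critical value of 0.493. Without that mouse Nfil3 was called by LL (adjusted p = 0.0200) and by PL genotype (adjusted p = 0.0102) without GKA in edgeR's test, where it was not called with it. Over all genes the calls rose too without that mouse, from 9 to 67 by LL and from 16 to 31 by PL genotype, and without LL mouse 42 Nfil3 was also called by LL genotype (adjusted p = 0.0369), with 85 of all genes. The interactions of genotype with GKA passed the test for 0 of 9 members.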

How the results depend on the processing

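The members' counts of calls changed under these settings. Without GKA, in place of 0 members and of 9 genes by LL and 16 by PL genotype, DESeq2 called 4 and 3 members (111 and 71 of all genes), PP mouse 7 kept gave 1 (Tef) and 1 (Dbp) (26 and 33 genes), and all 6 groups in 1 fit gave 1 (Nfil3) by LL (65 genes). Over both GKA states, in place of 4 each, no filter gave 3 and 3, and DESeq2 gave 5 (with Tef) by LL and 3 by PL genotype, where Bhlhe41 had no adjusted p. With the transcript length offset 0 were called by LL with GKA (in place of 1), 0 by LL over both GKA states and 1 by PL over both (in place of 4 each). Leaving out each mouse gave 0 to 3 members by LL and 0 to 2 by PL without GKA, 0 to 1 by LL and 0 to 0 by PL with GKA, and 3 to 5 by each genotype over both GKA states. The leave-one-out fits over both GKA states were chosen after seeing the data. RLE scaling changed the direction or call of 0 of 77 fold changes. DESeq2 and the filter changed no direction of a called gene.

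The direction turned in 15 of 77 fold changes with the transcript length offset. Tef became -0.43 (LL against PP without GKA), -0.71 (PL against PP without GKA), 0.24 (LL against PL with GKA) and -0.22 (PL against PP over both). Rora became 0.54 (LL against PP without GKA), 0.17 (LL against PL with GKA) and 0.088 (LL against PP over both). Bhlhe40 became 0.71 (PL against PP without GKA), -0.29 (LL against PL without GKA) and -0.42 (PL interaction). Ciart became -0.16 and Bhlhe41 0.28 (LL against PL without GKA), and Hlf -0.014 (PL against PP with GKA), 0.068 (GKA in PP) and 0.32 (GKA over all genotypes). The offset rests on the transcript mix estimated in each mouse, and the cause of these turns was not tested further. Bhlhe40 by PL genotype without GKA, at -0.002, turned to 0.003 without the filter, to 0.035 with PP mouse 7 kept, and lay between -0.112 and 0.096 when each mouse was left out, above 0 without PP mouse 2 (0.057), 6 (0.015), 9 (0.022) or 10 (0.055) or PL mouse 21 (0.096), 23 (0.066) or 28 (0.055). Usp2 by LL genotype with GKA ranged from -0.289 to 0.855 when each mouse was left out, below 0 without LL GKA mouse 53 alone.

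The 36 correlations kept their sign with PP mouse 7 kept, and 2 then passed the threshold (Hlf with Bhlhe41, 0.321, and Rora with Bhlhe41, -0.297). Of 22 transcript shares, 13 moved by less than 1 SD between mice when TPM replaced counts and 9 by more. No paired analysis was possible because no 2 mice of different groups share a number. Few reads limited Ciart, Bhlhe41 and Usp2, and a change below 1.5-fold would often be missed within a GKA state. Larger changes could be missed too, and not only for members that varied as widely between mice as Dbp and Usp2. By LL genotype without GKA, Dbp at 3.07-fold (adjusted p = 0.0896) and Usp2 at 3.41-fold (adjusted p = 0.174) were not called in edgeR's test. Nor were the less variable Nfil3, at 0.510 of the PP level (adjusted p = 0.109), and Tef, at 1.61-fold (adjusted p = 0.0778).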
